A study of Mus musculus and Rattus norvegicus with 96 samples.

Results

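The 8 transcripts that mark Kupffer cells, the resident macrophages of the liver, were read in the mouse liver libraries of Study 1. They are *Clec4f*, *Cd5l*, *Marco*, *Vsig4*, *Timd4*, *Adgre1*, *Cd68* and *Csf1r*, taken by name from the 24543 genes of the raw count table, and 8 of the 8 had counts in each of the 48 libraries. Their levels are given as CPM, a gene's count scaled to a library's total count over genes.

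The libraries came from male B6C3F1 mice, 10 to 11 weeks of age, that received phenobarbital (PB, an inducer of hepatic drug metabolism) at 600 ppm in drinking water for 7 days, or vehicle at 0 ppm (Con). Each of the 12 mice (6 Con, 6 PB) gave 4 preparations, which made 8 groups of n = 6 libraries. The frozen preparation (FR) was snap-frozen tissue without fixation. Portions of the same frozen tissue were later put in 70% ethanol (FR > OH) or 10% neutral buffered formalin (FR > FFPE) and embedded in paraffin. The FFPE preparation was fresh tissue put straight into 10% formalin and then embedded, so it was a separate piece of the liver and its piece and preparation cannot be told apart. By the labels, fixation in formalin lasted 18 to 24 h. RNA of FR was extracted with RNAzol and that of the 3 embedded preparations with an FFPE kit. The study's methods also report shorter fragmentation for FFPE samples and blocks stored at room temperature. Fixation therefore cannot be told apart from embedding, storage, extraction and library preparation in a comparison with FR.

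Kupffer cells line the liver sinusoids, where they take up particles, bacteria, dying cells and old red cells from portal blood. They arise before birth, renew themselves in place, and are kept by colony stimulating factor 1 signaling and by cues from the endothelial, stellate and parenchymal cells around them. *Clec4f* and *Timd4* are used as markers of these resident cells, whereas *Adgre1*, *Cd68* and *Csf1r* are shared by macrophages of many tissues. In RNA of whole tissue, fewer Kupffer cells and less RNA of these genes per cell cannot be told apart.

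Promoters of the Kupffer markers are shown as a description. A link between these sequences and the variation from mouse to mouse, described further on, was not tested. RefSeq starts (GRCm38.p6) were matched for 6 of the 8 genes, not for *Adgre1* and *Csf1r*. The 250 bases before the start were searched on both strands for GAGGAA, the purine-rich core of sites of PU.1, the myeloid transcription factor encoded by *Spi1*. It was in 4 of the 6 windows and in 23.3% of the 32851 RefSeq windows of the same length. A match of 6 letters is a description and not a binding site. The sequences run 5′ to 3′ on the gene's strand with matches in capitals. *Clec4f* (chr6:83656117-83656366, minus strand) had no match, *Cd5l* (chr3:87357631-87357880, plus strand) had 1 on the opposite strand, and *Vsig4* (chrX:96293439-96293688, minus strand) had 2.
Clec4f: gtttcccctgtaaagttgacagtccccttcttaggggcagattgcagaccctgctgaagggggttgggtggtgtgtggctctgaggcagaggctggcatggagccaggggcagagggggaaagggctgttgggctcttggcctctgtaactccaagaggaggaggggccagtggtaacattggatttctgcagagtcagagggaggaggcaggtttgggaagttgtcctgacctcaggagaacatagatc
Cd5l: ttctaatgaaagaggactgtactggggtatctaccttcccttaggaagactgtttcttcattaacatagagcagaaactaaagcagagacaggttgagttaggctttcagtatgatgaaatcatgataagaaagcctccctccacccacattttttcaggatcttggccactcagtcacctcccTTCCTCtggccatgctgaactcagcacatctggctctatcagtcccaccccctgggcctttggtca
Vsig4: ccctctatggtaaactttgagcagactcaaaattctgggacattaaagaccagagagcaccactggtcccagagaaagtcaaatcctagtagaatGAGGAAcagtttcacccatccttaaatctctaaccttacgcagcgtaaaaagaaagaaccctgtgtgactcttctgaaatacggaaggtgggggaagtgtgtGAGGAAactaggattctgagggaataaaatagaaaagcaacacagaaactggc

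Of the other windows, *Marco* had the letters 146 bases and *Cd68* 225 bases before the start, and *Timd4* had none.

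Total counts on genes were 11737338 to 13702672 per FR library, 8167321 to 11539022 in FR > OH, 5534973 to 10681783 in FR > FFPE and 4952797 to 6760422 in FFPE. The share of total reads that fell on genes had a median of 48.1% in FR, 38.6% in FR > OH, 37.3% in FR > FFPE and 25.5% in FFPE. *Cyp2b10*, the cytochrome P450 induced by PB, stayed at or below 2.45 CPM under Con (24 libraries) and reached 1078 CPM or more under PB (24 libraries). The liver label fitted the hepatocyte transcripts, with *Alb* (albumin) at 52031 ± 9189 CPM in FR Con (SD, n = 6). For the tests, counts were scaled to the total over 13370 genes that passed the filter of the authors, the 8 groups were fitted with the quasi-likelihood method of edgeR, and a gene was called at a Benjamini-Hochberg adjusted p under 0.05 over those genes. Scaled in this way, the median log2 fold change of all genes was 0.32 in FFPE vs. FR, 0.34 in FR > FFPE vs. FR, 0.18 in FR > OH vs. FR and −0.02 in FFPE vs. FR > FFPE, and changes of the Kupffer genes are read against these medians. The 3 comparisons with FR share the FR libraries.

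Per kilobase of annotated exon, the frozen control livers held *Cd5l* at 63.3 ± 14.1 and *Clec4f* at 46.8 ± 8.39 CPM per kb (SD, n = 6). *Vsig4* followed at 19.7 ± 3.55, *Csf1r* at 12.1 ± 2.08, *Adgre1* at 7.47 ± 1.84 and *Cd68* at 6.25 ± 1.01 CPM per kb. The lowest levels were those of *Timd4*, at 4.04 ± 0.70, and *Marco*, at 1.32 ± 0.70 CPM per kb. Ranges of neighbours in this order overlapped, except between *Clec4f* and *Vsig4* and between *Timd4* and *Marco*, although each of the 6 FR Con libraries held them in this order. The same order was found in 7 of the 8 group means. In FFPE Con, *Timd4* (3.30 ± 0.70 CPM per kb) stood just above *Cd68* (3.14 ± 0.76), with overlapping ranges.

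Summed over the 8 genes, FR Con libraries held 275 to 481 CPM (median 395) and FR PB libraries 309 to 650.1 CPM (median 459). The sums were 160.03 to 405 CPM (median 254) in FR > OH Con and 225 to 413 CPM (median 276) in FR > FFPE Con. FFPE Con had the lowest median, at 184 to 322 CPM (median 236). These ranges overlapped between preparations.

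**Figure D1:**
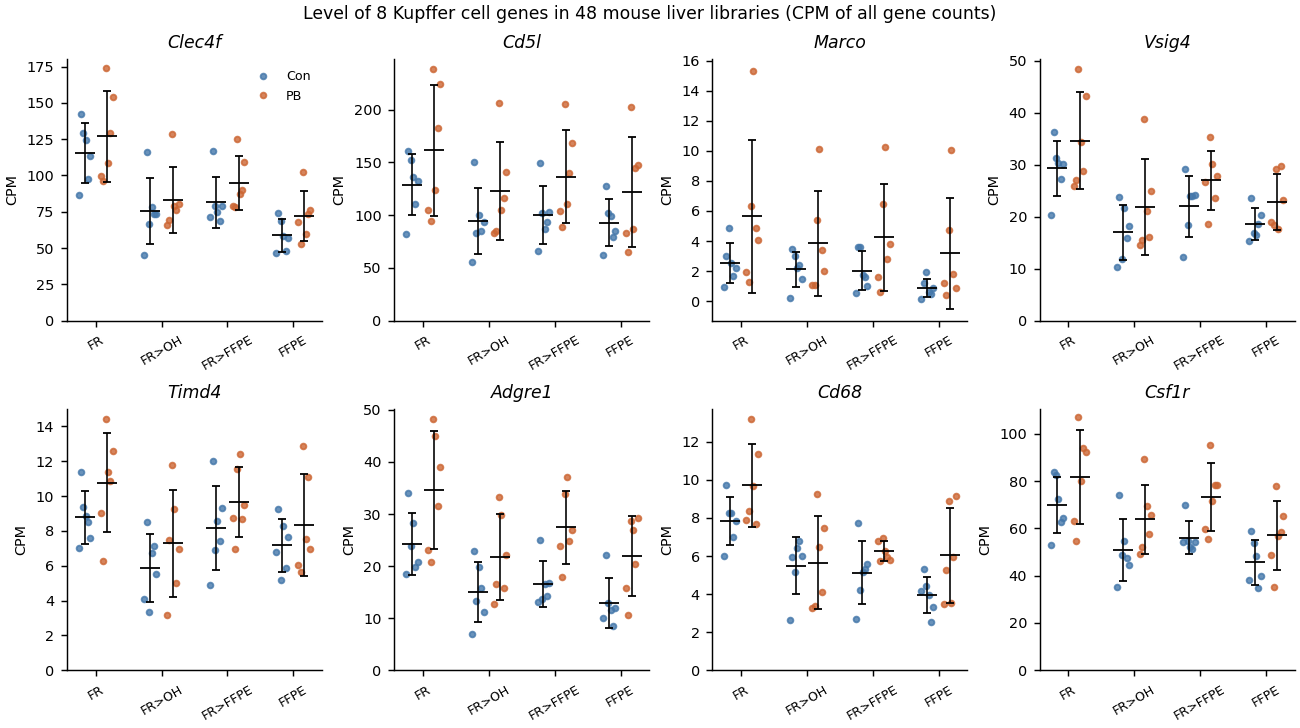
Levels of the 8 genes in CPM (vertical axis, which starts at 0 except for *Marco*, where an SD bar reaches below 0) for the 4 preparations, with one point per library, Con in blue and PB in orange. Horizontal marks and bars give the mean ± SD of 6 libraries. *Clec4f* in FFPE Con (46.4 to 74.2 CPM) lies below *Clec4f* in FR Con (86.8 to 143 CPM), and one PB mouse holds the highest *Marco* value in each preparation.

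Fresh tissue fixed directly in formalin was compared with frozen tissue (FFPE vs. FR). Of the 8 Kupffer genes, 7 fell in FFPE and 0 rose, and 17.3% of all genes tested were called lower. *Timd4* was not called. The 8 log2 fold changes ran from −1.15 to −0.32 with a median of −0.70, against 0.32 for all genes, and 8 of 8 lay below that all-gene median. Within mice, 6 of the 8 genes were lower in FFPE than in FR in 12 of 12 animals, which held for 11.7% of all genes.

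*Clec4f* encodes a C-type lectin that binds galactose-bearing ligands and is made almost solely by Kupffer cells in mice. Its gene lies on chromosome 6 from 83644542 to 83656116 (minus strand, GRCm38). FR Con libraries held 86.8 to 143 CPM (median 119) and FFPE Con libraries 46.4 to 74.2 CPM (median 57.4). The 2 groups did not overlap. In PB mice the range was 95.999 to 174 CPM (median 119) in FR and 52.5 to 103 CPM (median 70.8) in FFPE, with overlap. The log2 fold change was −0.90 (SE 0.13, adjusted p = 3.68e-08), and 12 of 12 mice were lower in FFPE, at 0.46 to 0.68 of their own frozen level.

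*Cd5l* encodes a secreted scavenger receptor cysteine-rich protein that inhibits apoptosis of macrophages (chromosome 3, 87357881 to 87371074). It was at 82.2 to 160.3 CPM (median 134) in FR Con and 62.7 to 127 CPM (median 92.4) in FFPE Con, and these ranges overlapped. FR PB libraries were at 94.4 to 239 CPM (median 153) and FFPE PB libraries at 65.2 to 202 CPM (median 116). The log2 fold change was −0.44 (SE 0.18, adjusted p = 0.0294), and 12 of 12 mice were lower in FFPE.

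The ratio of *Clec4f* to *Cd5l* within a library does not depend on how libraries are scaled. It was 0.847 to 1.06 in FR Con and 0.583 to 0.741 in FFPE Con, without overlap. In PB mice it was 0.688 to 1.02 in FR and 0.507 to 0.815 in FFPE, with overlap. The ratio was lower in FFPE than in FR in 12 of 12 mice, in FR > OH in 12 of 12 and in FR > FFPE in 11 of 12. This pair was chosen after the values were seen, and its difference was not tested.

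Scavenger and complement receptors made up the next group. *Marco*, a class A scavenger receptor that binds bacteria and particles (chromosome 1, 120474538 to 120505084), was the scarcest, at 0.938 to 4.86 CPM (median 2.38, 12 to 57 counts) in FR Con. In FFPE Con it was at 0.166 to 1.92 CPM (median 0.747), which rested on 1 to 10 counts per library. Its log2 fold change was −1.15 (SE 0.48, adjusted p = 0.0321), with a 95% half-width of 0.97. This interval was the widest of the 8. *Marco* also spread widely between mice in FR PB (1.27 to 15.3 CPM, median 4.48) and FFPE PB (0.404 to 10.0 CPM, median 1.51), and it overlapped between the preparations in both treatments.

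*Vsig4*, the complement receptor CRIg, through which Kupffer cells catch opsonized bacteria (chromosome X, 96247203 to 96293438), was at 20.4 to 36.4 CPM (median 30.2) in FR Con. In FFPE Con it was at 15.4 to 23.6 CPM (median 17.8). FR PB held 25.9 to 48.5 CPM (median 31.6) and FFPE PB 17.6 to 29.7 CPM (median 21.2). Groups overlapped in both treatments, and 11 of 12 mice were lower in FFPE. The log2 fold change of *Vsig4* was −0.63 (SE 0.15, adjusted p = 0.000276).

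*Timd4* encodes a receptor for phosphatidylserine on dying cells (chromosome 11, 46810799 to 46844333). FR Con was at 7.04 to 11.4 CPM (median 8.67) and FFPE Con at 5.17 to 9.27 CPM (median 7.23). FR PB was at 6.26 to 14.4 CPM (median 11.1) and FFPE PB at 5.65 to 12.9 CPM (median 7.27), and groups overlapped in both treatments. Its log2 fold change was −0.32 (SE 0.17, adjusted p = 0.0834), the smallest of the 8, and 10 of 12 mice had less in FFPE. With the mouse as a block the value was −0.33 (adjusted p = 0.0064), which was called.

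The general macrophage genes fell as well. *Adgre1*, which encodes the F4/80 antigen (chromosome 17, 57358686 to 57483529), went from 18.5 to 34.0 CPM (median 22.3) in FR Con to 8.58 to 22.2 CPM (median 11.8) in FFPE Con. In PB mice it was at 20.7 to 48.2 CPM (median 35.3) in FR and 10.7 to 29.2 CPM (median 23.7) in FFPE. Its log2 fold change was −0.78 (SE 0.18, adjusted p = 0.000242).

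*Cd68*, a glycoprotein of lysosomes (chromosome 11, 69664213 to 69666170), was at 6.02 to 9.75 CPM (median 8.06) in FR Con and 2.52 to 5.32 CPM (median 4.05) in FFPE Con, without overlap. In PB mice *Cd68* was at 7.66 to 13.2 CPM (median 9.04) in FR and 3.47 to 9.14 CPM (median 5.598) in FFPE. For *Cd68* the log2 fold change was −0.84 (SE 0.17, adjusted p = 2.46e-05).

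*Csf1r*, the receptor of colony stimulating factor 1 and interleukin 34 (chromosome 18, 61105572 to 61131139), was at 53.02 to 83.8 CPM (median 68.4) in FR Con and 34.7 to 58.98 CPM (median 44.0) in FFPE Con. In PB mice it was at 54.7 to 107 CPM (median 86.2) in FR and 35.1 to 77.95 CPM (median 57.5) in FFPE. The log2 fold change was −0.57 (SE 0.12, adjusted p = 6.14e-05). *Adgre1*, *Cd68* and *Csf1r* were lower in FFPE in 12 of 12 mice, yet each one overlapped between FR PB and FFPE PB.

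A 2-fold fall in Con and in PB was added to the adjusted p, with counts scaled to the genes kept. By this, 0 of the 8 genes were lower in FFPE, beside 1.28% of all genes. *Clec4f* came near, with log2 fold changes of −0.98 in Con and −0.81 in PB mice by edgeR. The study also asked for a 2-fold change but divided by total library size. With total reads as the library size, 8 of 8 were called lower at a median of −1.65. The all-gene median was then −0.63, and 70.7% of all genes were called lower. The 2-fold count was not made with that scaling. Lane limits the comparison. By the number in the library labels read as a lane, FFPE and FR shared lane 2 alone, where 2 FFPE PB libraries met 8 FR libraries. With that number as a term in edgeR, 1 of 8 genes was called lower (*Clec4f*, −0.64, adjusted p = 0.0319), beside 9.62% of all genes, and *Cd5l* was at 0.25. With the mouse as a block and the lane as a term, 5 of 8 were called lower, beside 7.6% of all genes, and 8 of 8 were below 0. FR and FR > FFPE shared lane 3 (4 FR PB and 6 FR > FFPE Con libraries), whereas FR > OH shared no lane with FR, nor FFPE with FR > FFPE, and these pairs were linked by lane only through other preparations. A fit of the 48 libraries with mouse, preparation and lane as additive terms was added after the values were seen. In FFPE vs. FR that fit called 3 of the 8 genes lower (*Clec4f* at −0.77, *Csf1r* at −0.47 and *Marco* at −1.71), 8 of 8 were below 0, and 11.5% of all genes were called lower.

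**Figure D2:**
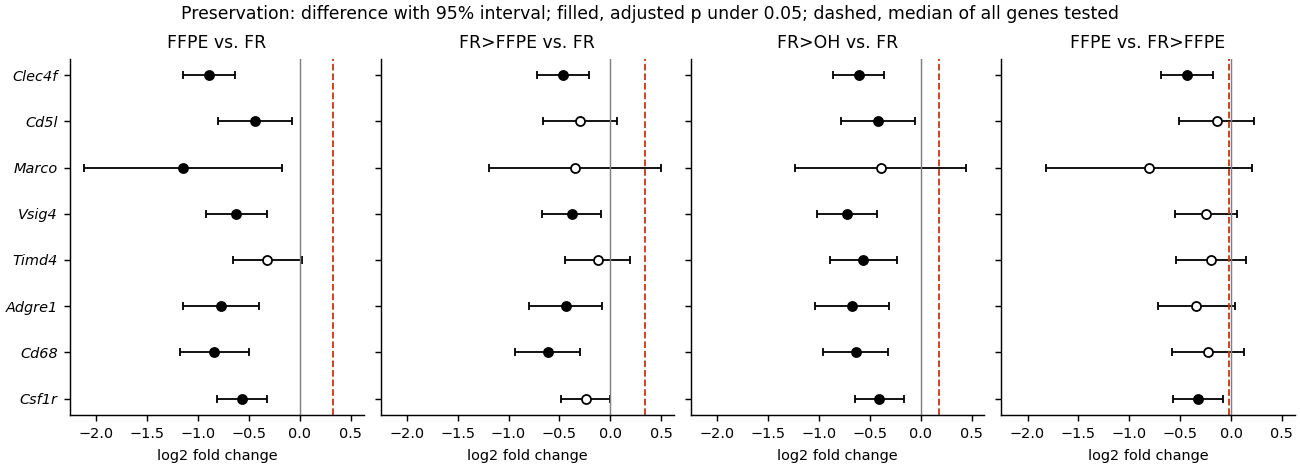
Log2 fold change (horizontal axis) of each gene (vertical axis) in 4 comparisons of preparations averaged over Con and PB, with 95% intervals. Filled points have an adjusted p under 0.05 in edgeR and the dashed line is the median of all 13370 genes tested. Points of the 8 genes lie left of the dashed line in each panel, and 7, 4, 7 and 2 of them are filled.

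Freezing before formalin was compared with freezing alone (FR > FFPE vs. FR). Of the 8 genes, 4 fell and 0 rose, beside 8.92% of all genes called lower. *Cd68* fell most, by a log2 fold change of −0.61 (SE 0.16, adjusted p = 0.000797), followed by *Clec4f* at −0.46 (SE 0.13, adjusted p = 0.00132). *Adgre1* was at −0.44 (SE 0.18, adjusted p = 0.0278) and *Vsig4* at −0.38 (SE 0.14, adjusted p = 0.0199). *Cd5l* (−0.30), *Marco* (−0.35), *Csf1r* (−0.24) and *Timd4* (−0.12) were not called. With TMM scaling or total reads as the library size, 7 of the 8 were called lower, beside 25.2% and 29.3% of all genes. With mouse, preparation and lane as additive terms 6 of the 8 were called lower (median −0.46), beside 6.61% of all genes, and 8 of 8 were below 0.

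Levels in FR > FFPE lay between those of FR and FFPE for *Clec4f*, at 68.7 to 117 CPM (median 76.9) in Con and 78.3 to 125 CPM (median 88.5) in PB mice. *Cd68* was at 2.71 to 7.75 CPM (median 5.25) in Con and 5.75 to 6.95 CPM (median 6.12) in PB mice, where it did not overlap FR PB (7.66 to 13.2 CPM). *Timd4* was at 4.88 to 12.01 CPM (median 7.98) in Con and 6.98 to 12.4 CPM (median 9.10) in PB mice, and 8 of 12 mice had less than in FR. *Csf1r* was at 51.3 to 70.0 CPM (median 54.3) in Con and 55.4 to 95.0 CPM (median 75.0) in PB mice.

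*Cd5l* in FR > FFPE was at 65.9 to 149 CPM (median 97.8) in Con and 88.9 to 206 CPM (median 126) in PB mice, and 12 of 12 mice were lower than in FR although the test over groups did not call it. *Vsig4* was at 12.3 to 29.1 CPM (median 24.0) in Con and 18.6 to 35.3 CPM (median 27.2) in PB mice. *Adgre1* was at 13.2 to 25.0 CPM (median 15.4) in Con and 18.0 to 37.1 CPM (median 25.9) in PB mice. *Marco* was at 0.542 to 3.63 CPM (median 1.67) in Con and 0.616 to 10.2 CPM (median 3.28) in PB mice. For these genes Con and PB ranges of FR > FFPE overlapped those of FR.

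With the mouse as a block in edgeR, 7 of the 8 genes were called lower in FR > FFPE, beside 11.6% of all genes. *Cd5l* (−0.30, adjusted p = 2.7e-07), *Csf1r* (−0.23, adjusted p = 2.19e-05) and *Marco* (−0.38, adjusted p = 0.0144) passed as well. The criterion of a 2-fold change in Con and in PB was met by 0 of 8 genes and by 0.0224% of all genes.

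The ethanol control was compared with freezing alone (FR > OH vs. FR). Here 7 of the 8 genes fell and 0 rose, beside 13.3% of all genes called lower. Without a filter on low counts 6 of the 8 were called, as *Cd5l* had an adjusted p of 0.0557 in edgeR. With mouse, preparation and lane as additive terms 7 were called lower (median −0.96), beside 3.55% of all genes. The log2 fold changes ran from −0.72 to −0.39 with a median of −0.59, and 12 of 12 mice were lower for 6 of the 8 genes (8.92% of all genes). *Vsig4* fell most, by a log2 fold change of −0.72 (SE 0.15, adjusted p = 4.8e-05), from a median of 30.2 CPM in FR Con to 10.3 to 23.7 CPM (median 17.1) in FR > OH Con. FR > OH PB held 14.5 to 38.8 CPM (median 18.6), and both treatments overlapped with FR.

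*Adgre1* was at −0.67 (SE 0.18, adjusted p = 0.00131) and *Cd68* at −0.64 (SE 0.16, adjusted p = 0.000679) on the log2 scale. *Clec4f* was at −0.61 (SE 0.13, adjusted p = 6.16e-05), with 45.4 to 116 CPM (median 73.7) in FR > OH Con. *Timd4*, which the main fit did not call in either formalin preparation, was at −0.56 (SE 0.16, adjusted p = 0.00318). Relative to the all-gene median *Timd4* was at −0.75 in FR > OH, −0.64 in FFPE and −0.46 in FR > FFPE. With TMM scaling 8 of 8 genes, *Timd4* among them, were called lower in FFPE vs. FR, beside 31.3% of all genes. The *Timd4* range was 3.34 to 8.51 CPM (median 6.12) in FR > OH Con and 3.16 to 11.8 CPM (median 7.24) in FR > OH PB.

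The general macrophage genes were low in the ethanol libraries of both treatments. *Adgre1* was at 7.00 to 22.9 CPM (median 14.5) in FR > OH Con and 12.7 to 33.3 CPM (median 19.3) in FR > OH PB. *Cd68* was at 2.67 to 6.78 CPM (median 5.97) and 3.26 to 9.27 CPM (median 5.27) in the same groups. The lowest *Adgre1* and *Cd68* values of FR > OH Con were those of mouse 21C.

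*Cd5l* (−0.42, SE 0.18, adjusted p = 0.0458) and *Csf1r* (−0.41, SE 0.12, adjusted p = 0.00361) fell least among those called. FR > OH Con held *Cd5l* at 55.2 to 150.5 CPM (median 89.3) and *Csf1r* at 35.1 to 74.2 CPM (median 48.1). In PB mice the FR > OH ranges were 83.1 to 206 CPM (median 110.2) for *Cd5l* and 49.3 to 89.2 CPM (median 61.6) for *Csf1r*. *Marco* was at −0.39 (SE 0.42, adjusted p = 0.442) and was called only with the mouse as a block (−0.42, adjusted p = 0.00827). None of the 8 genes reached a 2-fold fall in both treatments (0 of 8), which 0.0524% of all genes did.

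Fresh and previously frozen tissue in formalin were compared next (FFPE vs. FR > FFPE). *Clec4f* (−0.43, SE 0.13, adjusted p = 0.00849) and *Csf1r* (−0.33, SE 0.12, adjusted p = 0.038) were called lower in FFPE. This was 2 of the 8 genes, beside 17.4% of all genes called lower. The 8 values ran from −0.80 for *Marco* to −0.14 for *Cd5l*, with a median of −0.29 against −0.02 for all genes. *Clec4f*, *Csf1r* and *Marco* were lower in FFPE than in FR > FFPE in 12 of 12 mice, beside 6.75% of the 13370 genes tested.

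With the mouse as a block in edgeR, 6 of the 8 genes were called lower in this comparison, beside 24.7% of all genes. This added *Marco* (−0.84, adjusted p = 0.000174), *Adgre1* (−0.35, adjusted p = 0.000449), *Cd5l* (−0.15, adjusted p = 0.0107) and *Vsig4* (−0.24, adjusted p = 0.0153). With total reads as the library size, which set the median of all genes to −0.59, 8 of 8 were called lower beside 82.4% of all genes. With TMM scaling 1 of 8 was called lower, beside 15.9% of all genes. With mouse, preparation and lane as additive terms 0 of 8 were called and 5 lay above 0, among them *Adgre1* at 0.36 and *Cd68* at 0.61. *Marco* was at −1.47 in that fit (unadjusted p = 0.0221, adjusted p = 0.2003), the 1 gene of the 8 with an unadjusted p under 0.05, and 2.39% of all genes were called lower. The direction of 5 of the 8 genes in this comparison therefore turned with the lane term. A 2-fold fall in Con and in PB was met by 0 of 8 genes and 0.015% of all genes.

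Other genes of Kupffer cells and macrophages were read as a list of 24, and 16 of them fell in FFPE vs. FR and 2 rose (median −0.52). Of all genes 17.3% were called lower and 53% higher in this comparison, the background of each list in FFPE vs. FR. *Fcna*, a ficolin of the lectin complement pathway, went from 34.2 ± 4.66 to 15.3 ± 2.73 CPM in Con mice (SD, n = 6) and had a log2 fold change of −1.25 (SE 0.11, adjusted p = 6.17e-14). *C1qa*, a chain of complement C1q, fell from 48.3 ± 8.12 to 20.7 ± 3.02 CPM with a log2 fold change of −1.21 (SE 0.13, adjusted p = 6.41e-11). *Folr2*, a folate receptor of macrophages, had −1.22 (SE 0.18, adjusted p = 1.34e-07). *Cd163*, the receptor for haptoglobin-bound hemoglobin, was at 24.0 ± 7.99 (FR Con) and 17.7 ± 4.35 CPM (FFPE Con) and was not called (−0.30, adjusted p = 0.233).

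In FR > FFPE vs. FR 10 of the 24 fell and 2 rose (median −0.30), beside 8.92% of all genes called lower and 56.5% called higher. In FR > OH vs. FR 18 fell and 1 rose (median −0.53), beside 13.3% called lower and 41.7% called higher.

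Transcription factors of Kupffer cells lay nearer to the all-gene median than the markers did. The 10 regulators had a median log2 fold change of 0.28 in FFPE vs. FR, against 0.32 for all genes and −0.70 for the 8 markers, and 4 of them rose and 0 fell, beside 53% of all genes called higher. With TMM scaling, which set the all-gene median to 0.04 and called 34.1% of all genes higher and 31.3% lower, 1 regulator rose and 3 fell, so the direction of this list turned with the scaling. *Nr1h3*, which encodes LXR alpha and is expressed by hepatocytes as well, was at 78.9 ± 4.05 (FR Con) and 89.8 ± 6.63 CPM (FFPE Con). Its log2 fold change of 0.15 (SE 0.05, adjusted p = 0.0118) turned to −0.14 with TMM scaling. *Spic*, the factor of iron-recycling macrophages, was at 1.40 ± 0.62 (FR Con) and 0.84 ± 0.29 CPM (FFPE Con) and was not called (−0.59, adjusted p = 0.0865).

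Ligands of the Kupffer cell niche were a list of 10, of which 6 rose and 1 fell in FFPE vs. FR, with a median of 0.47 against 0.32 for all genes, and 53% of all genes were called higher. With TMM scaling 5 rose and 3 fell, beside 34.1% of all genes called higher, and with total reads 0 rose and 6 fell, beside 70.7% called lower. *Csf1*, a ligand of the receptor encoded by *Csf1r*, was at 10.7 ± 2.07 (FR Con) and 18.5 ± 4.95 CPM (FFPE Con) (log2 fold change 0.83, SE 0.12, adjusted p = 3.5e-08, and −0.12 with total reads). The second ligand, *Il34*, was at 1.22 ± 0.29 and 1.64 ± 0.18 CPM and was not called (0.41, adjusted p = 0.0938). *Cxcl12*, a chemokine of stromal and endothelial cells, was at 0.92 on the log2 scale (SE 0.09, adjusted p = 5.61e-13) and at −0.02 with total reads.

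Cell types around Kupffer cells were read in the same way. Of 12 genes of sinusoidal endothelium, 11 fell and 0 rose in FR > OH vs. FR (median −0.63, beside 13.3% of all genes called lower), a direction kept under each scaling. In FFPE vs. FR 1 fell and 3 rose (median 0.10, beside 17.3% and 53% of all genes), and with TMM scaling 5 fell and 0 rose, beside 31.3% of all genes called lower. *Stab2*, a hyaluronan receptor of these cells, was at −0.19 (adjusted p = 0.0088) in FR > OH vs. FR. Of 9 hepatocyte genes tested, 7 fell and 1 rose in FFPE vs. FR (median −1.15), beside 17.3% of all genes called lower, *Alb* by a log2 fold change of −1.23 (SE 0.13, adjusted p = 7.66e-12). Of 12 stellate cell genes 5 fell and 3 rose (median −0.05), and with TMM scaling 6 fell and 0 rose, beside 31.3% of all genes called lower.

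Markers of other blood and immune cells were sparse. Summed CPM of the 9 monocyte genes was 10.5 to 20.6 in FR Con and 7.13 to 19.6 in FFPE Con, and 1 of the 7 tested fell in FFPE vs. FR. The 8 neutrophil genes summed to 2.97 to 18.7 (FR Con) and 3.81 to 8.72 CPM (FFPE Con), and the 5 B cell genes to 0.744 to 2.35 and 0.168 to 1.202 CPM. Of 5 red cell genes tested 4 fell in FFPE vs. FR (median −1.35). No listed gene that was read was at 0 in the 48 libraries together. The hepatocyte list named transferrin as *Tf*, which the table holds as *Trf*, so transferrin was not in that list's counts. The 3 nuclear and ribosomal RNAs, *Rn45s*, *Malat1* and *Neat1*, rose in each embedded preparation, and together they took 14538 to 20514 (FR Con) and 105240 to 144092 CPM (FFPE Con). The part of these RNAs, and of the loss of reads on genes, in the lower Kupffer values was not tested. A scaling factor moves all genes of a library alike, and the median of the 8 genes minus that of all genes in FFPE vs. FR was −1.03 with the total count, TMM factors, DESeq2's size factors or total reads. A term for the number read as a lane did move it, to −0.55 alone, −0.85 with the mouse as a block as well and −0.65 in the additive fit of the 48 libraries.

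**Figure D3:**
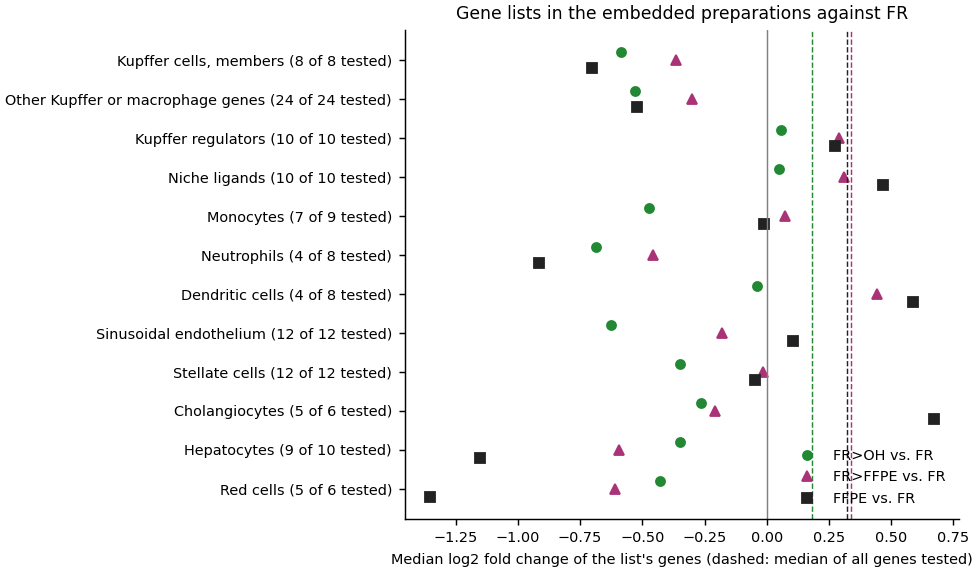
Median log2 fold change (horizontal axis) of each gene list (vertical axis, with the number of genes tested) in FR > OH (circles), FR > FFPE (triangles) and FFPE (squares) against FR. Dashed lines are the medians of all genes in the same comparisons, and lists with fewer than 4 genes tested and the 3 nuclear and ribosomal RNAs are left out. The 8 Kupffer genes lie at −0.59, −0.36 and −0.70, and their regulators at 0.06, 0.29 and 0.28, whose sign turned with TMM scaling in each.

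Mice differed in the 8 genes in a way that recurred over preparations. In 32 combinations of gene and preparation, control mouse 82B was the highest of the 6 Con mice in 28 and control mouse 21C the lowest in 25. Among PB mice, 20B was the highest in 23 combinations, and 18D the lowest in 20 and 18B in 10. The mean log2 deviation from the group was 0.62 for 20B, 0.54 for 82B, −0.61 for 18D and −0.64 for 21C. As the preparations of a mouse share its liver, these are not separate observations. The share of reads on genes in FR, FR > OH, FR > FFPE and FFPE was 51.8%, 44.9%, 37.8% and 27.5% for 20B. It was 48.2%, 38.2%, 36.5% and 24.4% for 82B. For 21C it was 46.8%, 34.1%, 31.7% and 25.2%, and for 18D 49.3%, 36.0%, 37.4% and 22.1%. The part of this share in the differences between mice was not tested.

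For *Marco*, PB mouse 20D held the highest level of the 12 mice in each preparation, at 15.3 CPM in FR, 10.1 in FR > OH, 10.2 in FR > FFPE and 10.0 in FFPE, from 194, 94, 103 and 65 counts. The next highest mouse was 20B in each, at 6.35, 5.37, 6.44 and 4.73 CPM. The mean log2 deviation of 20D from its group was 2.00 for *Marco*, 0.47 for *Adgre1*, 0.23 for *Timd4* and 0.05 for *Csf1r*. It was −0.02 for *Vsig4*, −0.08 for *Cd68*, −0.14 for *Clec4f* and −0.27 for *Cd5l*.

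**Figure D4:**
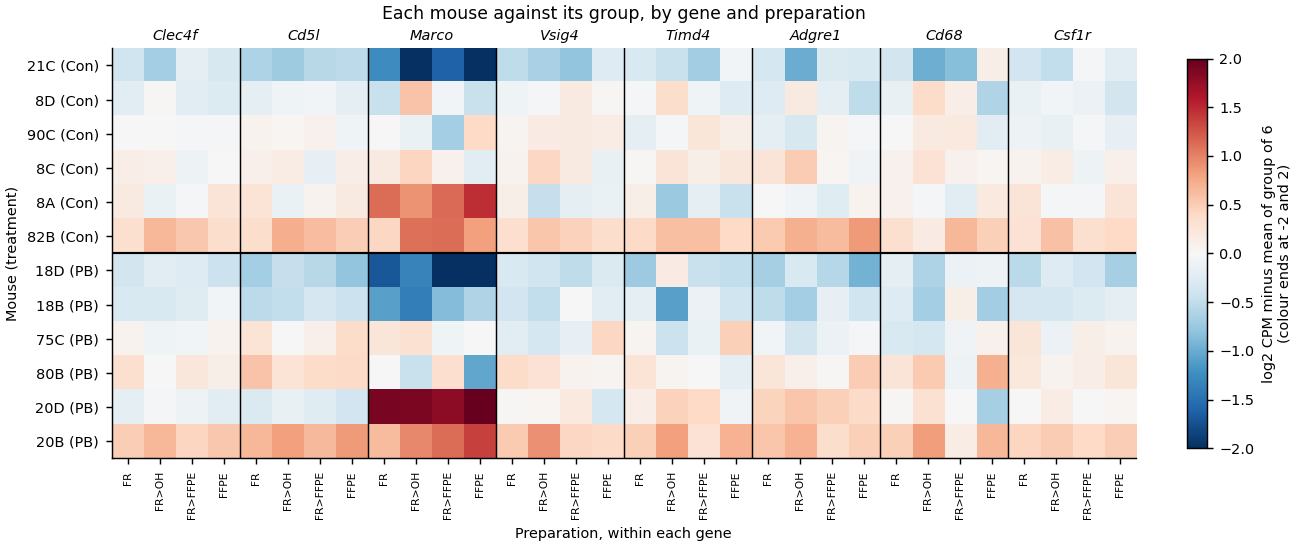
Difference of log2 CPM from the mean of the library's group of 6 (colour, red higher and blue lower, ending at −2 and 2), by mouse (rows, Con above PB) and by gene and preparation (columns). Mice 20B and 82B are red and 21C and 18D blue over most columns, and 20D is red in the 4 *Marco* columns.

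Genes that varied most like the 8 over the 48 libraries, once group means were removed, were named by Pearson's r to the mean residual of the 8, as a description. Of 12280 other genes at a mean of at least 1 CPM, *C1qc* came first (r = 0.92), followed by *Fyb* (0.89), *C1qa* (0.86), *Cfp* (0.85) and *Kcna2* (0.85). *C1qb* (0.83), *P2ry13* (0.83), *Nckap1l* (0.82), *Trf* (0.82) and *Npc2* (0.82) completed the 10. *C1qa*, *C1qb* and *C1qc* encode the 3 chains of C1q and *Cfp* encodes properdin, and these 4 are on the list of other macrophage genes. *Trf* encodes transferrin, a product of hepatocytes, at a mean of 17204 CPM. Each of the 8 had r of 0.66 (*Marco*) to 0.91 (*Adgre1*) to the mean of the other 7, and the 4 libraries of a mouse share its liver.

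By group means instead, the 5 genes with the smallest root mean square difference from the mean profile of the 8 were *Col14a1* (0.07 on the log2 scale), *Mif* (0.08), *Lyz2* (0.09), *H2afz* (0.09) and *Pcolce* (0.09). *Lyz2* encodes lysozyme of macrophages, and *Col14a1* and *Pcolce* encode proteins of the collagen matrix.

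PB treatment was compared with Con over mice, on counts summed over the 4 preparations of each mouse. Of the 8 genes, 0 were called by edgeR, beside 9.01% of all genes called higher, and DESeq2 also called 0. One gene, *Adgre1*, had an unadjusted p under 0.05. The 8 log2 fold changes lay above 0, from 0.17 for *Clec4f* to 1.12 for *Marco* with a median of 0.29, against 0.03 for all genes.

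*Adgre1* was at 12.95 to 27.0 CPM (median 16.4) in the 6 Con mice and 17.5 to 37.6 CPM (median 27.0) in the 6 PB mice, with overlap. Its log2 fold change was 0.60 (SE 0.21, adjusted p = 0.0865). It was called without Con mouse 82B (0.74, adjusted p = 0.0372) or without PB mouse 18D (0.70, adjusted p = 0.0463), and was 0.49 (adjusted p = 0.179) without PB mouse 20B. *Marco* was at 0.54 to 3.63 CPM (median 1.803) in Con and 0.92 to 11.8 CPM (median 3.23) in PB mice, with a log2 fold change of 1.12 (SE 0.55, adjusted p = 0.216). Without mouse 20D it was 0.54.

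*Clec4f* had the smallest difference between treatments, at 65.7 to 117.9 CPM (median 87.7) in Con and 78.5 to 138 CPM (median 92.5) in PB mice. The log2 difference was 0.17 with a 95% half-width of 0.33. *Cd5l* was at 0.37 (SE 0.23), *Csf1r* at 0.30 (SE 0.14), *Vsig4* at 0.28 (SE 0.17), *Cd68* at 0.27 (SE 0.16) and *Timd4* at 0.26 (SE 0.17), with adjusted p from 0.203 to 0.348. *Csf1r* ran from 45.7 to 73.8 CPM (median 55.98) in Con and from 51.5 to 94.6 CPM (median 73.5) in PB mice, and *Cd5l* from 68.7 to 149 CPM (median 108) and from 86.5 to 216 CPM (median 129). Con and PB mice overlapped for each of the 8 genes. Without mouse 20B the median of the 8 fell from 0.29 to 0.18, and 0 genes were called. The 24 other macrophage genes had 0 called and a median of 0.19.

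Within preparations, 0 of the 8 genes were called for PB by edgeR and by DESeq2. The background of genes called higher was 5.86% in FR, 8.43% in FR > OH, 6.24% in FR > FFPE and 4.64% in FFPE. An unadjusted p under 0.05 was found for *Adgre1* and *Marco* in FR, *Adgre1* in FR > OH, *Adgre1* and *Csf1r* in FR > FFPE, and *Adgre1*, *Cd68* and *Marco* in FFPE, that is for 2, 1, 2 and 3 of the 8. *Adgre1* had log2 fold changes of 0.52, 0.53, 0.72 and 0.77 in that order of preparations, with adjusted p of 0.21, 0.187, 0.0786 and 0.0856 by edgeR. The median over the 8 genes was 0.30, 0.35, 0.33 and 0.36, and without mouse 20B it was 0.19, 0.14, 0.26 and 0.21. Without that mouse 2 of the 8 genes in FR > OH were below 0. FR > FFPE Con libraries all had lane number 3 and FR > FFPE PB libraries 4, so PB and this number cannot be told apart there. In FR, FR > OH and FFPE, Con and PB shared only part of their libraries' numbers (2, 5 and 1). These comparisons and the interactions were not fitted with the lane number.

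Whether preparation altered the PB effect was tested as an interaction with FR as the reference. In the edgeR fit without a mouse term, 0 of the 8 genes were called for FFPE, FR > FFPE or FR > OH, and 0 had an unadjusted p under 0.05. That fit does not use the pairing of preparations by mouse. Across all genes the share called in this fit without a mouse term was 0% for each of the 3 interactions, and 463, 288 and 305 genes had an unadjusted p under 0.05. With the mouse as a block in edgeR, 1, 0 and 37 of all genes were called in the same order. In that fit 1143, 1164 and 1116 genes had an unadjusted p under 0.05. Values of the 8 genes in the fit with the mouse as a block are not given here. Without the mouse term, the widest differences were those of *Marco*, at 0.73 (SE 0.98) for FFPE and −0.31 (SE 0.84) for FR > OH. Neither was called.

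**Figure D5:**
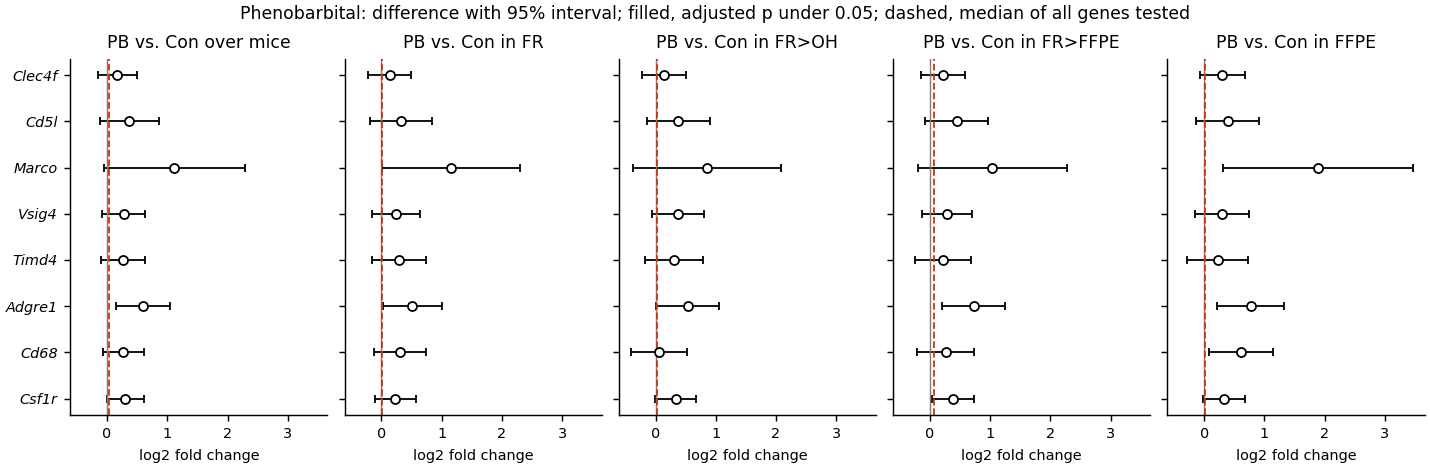
Log2 fold change of PB vs. Con (horizontal axis) of each gene (vertical axis) over the 12 mice and within each preparation, with 95% intervals from edgeR and the median of all genes tested as a dashed line. Points are open, as 0 of the 8 genes had an adjusted p under 0.05 in any panel, and *Marco* has the widest intervals.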

How the data were processed

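Per the labels and the study's methods, stranded ribosomal RNA-depleted libraries were sequenced, basecalled with CASAVA 1.8.2, aligned with STAR 2.5.3a to GRCm38 and quantified in Partek Flow. The authors deposited estimated counts per gene (95.1% of values whole within 0.005) and log2 CPM values, which served here to work out the total reads of each library. Tables of rat tissue and of the AML12 cell line were not used here. Groups came from the sample labels.

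Counts were rounded and genes at or below a geometric mean of 1 were left out, as the authors did, which kept 13370 of 24543 genes. The library size was the total over those genes, without scaling factors. edgeR 4.0.16 (R 4.3.3) was fitted to the 8 group means with its quasi-likelihood test, and a gene was called at a Benjamini-Hochberg adjusted p under 0.05. PB was tested over 12 mice on summed counts. The edgeR fits were tried on simulated counts without a mouse effect. Recovery was read with the depth at which counts were drawn as the library size, not the total used in the main fits. Depth was 4952797 to 13702672 counts per library, and counts of low genes such as *Marco* limit precision.

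The mouse in the labels ties the 4 preparations together, and 72 of 72 pairs of libraries of a mouse had a residual correlation over 0.1 (lowest 0.17). Fits with the mouse as a block, a lane term, mouse, preparation and lane as additive terms, TMM, total reads, DESeq2 1.42.0, other filters, the groups compared only and libraries left out were alternatives. The members, lists and tests were chosen with earlier results of these data known. Of each list, up to 3 genes with the largest absolute log2 fold change among those called in FFPE vs. FR, at a mean of at least 1 CPM, could be named, with *Cd163*, *C1qa*, *Csf1*, *Il34*, *Spic*, *Nr1h3*, *Stab2* and *Alb*. A gene that this rule would name is not reported here. Plots used matplotlib 3.10.9 in Python 3.11.15.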

Additional observations from a re-analysis of the deposited data

Results flagged for a closer look

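Within 64 groups of 6 libraries (8 genes by 8 groups), 6 held a library far from the nearest other one by Dixon's ratio on log2 CPM, where chance gives about 1 in 20. Each came from 1 of 3 mice that were high or low over most of the 8 genes. Control mouse 82B was the highest of FR > FFPE Con for *Clec4f* (117 CPM, next 79.1), *Adgre1* (25.0 CPM, next 16.7) and *Csf1r* (70.0 CPM, next 54.6). Control mouse 21C was the lowest of FR > OH Con for *Marco* (0.222 CPM from 2 counts, next 1.47) and *Cd68* (2.67 CPM from 24 counts, next 5.18). PB mouse 20B was the highest of FR > OH PB for *Clec4f* (128 CPM, next 80.3).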

How the results depend on the processing

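Among values of single genes under an alternative, 416 kept their direction and their side of the threshold, 33 gained a call, 16 lost one and 7 changed sign. Of the 8 genes, the number called in FFPE vs. FR went from 7 to 1 with the lane number as a term, where *Cd5l* (0.25) and *Timd4* (0.058) turned, to 5 with the mouse as a block and the lane as a term, and to 3 with mouse, preparation and lane as additive terms over 48 libraries. In FR > FFPE vs. FR it went from 4 to 7 with TMM factors, total reads, the mouse as a replicate block or DESeq2. In FFPE vs. FR > FFPE it went from 2 to 1 with TMM factors or DESeq2, to 8 with total reads and to 6 with the block. The additive fit took it to 0, where *Cd5l* (0.17), *Vsig4* (0.20), *Timd4* (0.26), *Adgre1* (0.36) and *Cd68* (0.61) turned, and it left 6 in FR > FFPE vs. FR and 7 in FR > OH vs. FR. No filter on low counts took FR > OH vs. FR from 7 to 6. The block also took FFPE vs. FR and FR > OH vs. FR from 7 to 8, beside 19.9% and 17.2% of all genes called lower. With the main scaling, a fold change of at least 2 in Con and in PB left 0 in each of the 4 comparisons. PB over mice had 0 to 1 called when 1 mouse was left out. Counts of the preservation comparisons were 7, 4, 7 and 2 without PB mouse 20B and without FR > FFPE Con mouse 21C. The block with the lane, the additive fit, total reads within preparations, the fits without mouse 20B and those without each mouse for PB over mice were chosen after seeing the data. The cause of these differences was not tested. The number read as a lane limits FFPE vs. FR, since 10 libraries of lane 2 hold both preparations, and low counts limit *Marco*.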

Other observations

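The remaining lists held few genes above the filter, and 53% of all genes were called higher and 17.3% lower in FFPE vs. FR (34.1% and 31.3% with TMM scaling). Of 4 dendritic cell genes tested 3 rose in FFPE vs. FR (median 0.59), which fell to 1 with TMM scaling. Of 4 neutrophil genes 1 rose and 2 fell (median −0.91), and with TMM scaling 0 rose and 2 fell. Of 5 cholangiocyte genes 2 rose and 1 fell (median 0.67), and with TMM scaling 1 rose and 1 fell. Of 2 genes of T and NK cells 1 rose, and the 1 B cell gene tested fell (−1.42). Of 7 monocyte genes, 2 fell and 0 rose in FR > OH vs. FR (median −0.47), beside 13.3% of all genes called lower.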
